A study of Mus musculus with 24 samples.

Results

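Cyp2e1, Cyp2f2, Cyp2j5, Cyp2j6, Cyp2j9, Cyp2u1 and Cyp2r1 are 7 cytochrome P450 genes of the mouse Cyp2 family that do not belong to the Cyp2a, Cyp2b and Cyp2c groups best known as targets of the constitutive androstane receptor (CAR). They were taken by symbol from tables of 24339 genes, each symbol had 1 entry per library, and all 7 were found and passed the filter on low values. Liver RNA of C57BL/6 mice was sequenced in 24 libraries, which form 8 groups of 3 replicates. The groups were hCAR-TG mice, in which human CAR was knocked in, given CITCO (an agonist of human CAR) or corn oil at day 60 and at day 5, and wild type (WT) mice given TCPOBOP (an agonist of mouse CAR) or corn oil at day 60 and at day 5. Receptor and ligand always differ together, so a difference between CITCO in hCAR-TG and TCPOBOP in WT cannot be assigned to either. The labels give no sex, litter, dose or time of sampling after dosing, so whether sex or litter differed between groups is not known. They do not say that replicates are separate animals, so p-values measure the spread between these samples, which may be technical.

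P450 enzymes are haem proteins of the endoplasmic reticulum that insert an oxygen atom into their substrates with electrons from P450 reductase. CYP2E1 oxidises ethanol, acetone and paracetamol, and in adult liver it is made around the central vein. CYP2F2 oxidises naphthalene, is abundant in the club cells of mouse lung, and in liver marks hepatocytes around the portal vein. CYP2J enzymes epoxidise arachidonic acid, CYP2U1 hydroxylates long-chain fatty acids, and CYP2R1 performs the hepatic 25-hydroxylation of vitamin D. CAR is a nuclear receptor that, once activated, binds to DNA with RXR and turns on Cyp2b10 and other drug-processing genes, and its activation in adult mouse liver also drives hepatocyte growth.

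Cyp2e1, Cyp2f2 and Cyp2j5 were the 3 members that passed the test with TCPOBOP at both ages in opposite directions, and the 250 bases before the start site of each are shown for that reason. Cyp2j9 (0.43 at day 5, -0.24 at day 60) and Cyp2j6 (0.05 at day 5, -0.49 at day 60) also had opposite signs on the log2 scale, but passed at 1 age each. The sequences are those of RefSeq on build GRCm38.p6, which held a promoter for 6 of the 7 genes and none for Cyp2u1. Cyp2e1 lies at chr7:140763569-140763818 on the plus strand, Cyp2f2 at chr7:27119705-27119954 on the plus strand and Cyp2j5 at chr4:96664120-96664369 on the minus strand. Each is written 5′ to 3′ in lower case with motif matches in capitals.
Cyp2e1: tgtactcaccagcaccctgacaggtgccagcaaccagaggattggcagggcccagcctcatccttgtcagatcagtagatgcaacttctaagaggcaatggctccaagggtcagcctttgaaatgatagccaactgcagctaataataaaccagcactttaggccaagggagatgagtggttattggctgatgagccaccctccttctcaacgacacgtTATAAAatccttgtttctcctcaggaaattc
Cyp2f2: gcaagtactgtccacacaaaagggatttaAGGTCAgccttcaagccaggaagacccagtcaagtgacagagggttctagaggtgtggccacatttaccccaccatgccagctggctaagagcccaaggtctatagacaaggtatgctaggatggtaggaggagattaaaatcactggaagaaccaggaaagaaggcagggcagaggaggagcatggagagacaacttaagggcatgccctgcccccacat
Cyp2j5: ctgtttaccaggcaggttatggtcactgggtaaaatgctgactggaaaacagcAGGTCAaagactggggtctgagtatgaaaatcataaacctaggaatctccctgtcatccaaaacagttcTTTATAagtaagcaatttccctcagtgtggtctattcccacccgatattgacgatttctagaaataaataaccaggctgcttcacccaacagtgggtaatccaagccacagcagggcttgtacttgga
The motifs were searched on both strands of windows that also held the 50 bases after the start site. The capitals in Cyp2e1 are a TATA box (TATAAA) whose first base lies at -31 from the start site. The capitals in Cyp2f2 are a nuclear receptor hexamer (AGGTCA) at -221. Cyp2j5 has the same hexamer at -197 and a TATA box read on the opposite strand at -128. These are common letters: of 32817 promoter windows of the same length, 16.3% held AGGTCA and 13.6% held TATAAA on either strand. The HNF1 motif GTTAAT (7.1% of windows), the HNF4 site CAAAGTCC (1.42%), the TCF site CTTTGAT (3.73%) and the C/EBP site TTGCGNAA (0.798%) had no match in any of the 6 windows, and Cyp2j6, Cyp2j9 and Cyp2r1 had no match to any of the 6 motifs. The motifs do not overlap one another in these windows.

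On build mm10, in the coordinates of the deposited tables shifted to count from 1, Cyp2e1 (chr7:140763832-140774977), Cyp2f2 (chr7:27119955-27133660) and Cyp2r1 (chr7:114550163-114562972) lie on chromosome 7 and Cyp2u1 (chr3:131290491-131303227) on chromosome 3. The 3 Cyp2j genes are neighbours on the minus strand of chromosome 4, Cyp2j6 at chr4:96516138-96553651, Cyp2j9 at chr4:96568429-96591485 and Cyp2j5 at chr4:96627432-96664119. All are protein-coding genes in GENCODE M21. Shared sequence was small for the Cyp2j genes: of 50-base windows of their transcripts, 0.174% for Cyp2j5 and 0.422% for Cyp2j6 were also found in another gene, and 0 for Cyp2j9 and Cyp2r1. The share was 3.91% for Cyp2e1, 8.997% for Cyp2f2 and 12.3% for Cyp2u1. The exons of Cyp2f2 overlap an antisense gene (Gm15883) and those of Cyp2u1 another (4930534D22Rik). Library preparation kept the strand, but the counting is not stated to have used it, so reads of these 2 members and of their antisense partners cannot be told apart.

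The values are FPKM, fragments scaled to transcript length and library size, and read totals are not known. Summed FPKM was 446595 to 502458 per library. The authors' interval around each FPKM gives an idea of the depth: one side of it had a median width of 0.624% of the value for Cyp2e1, 1.85% for Cyp2f2, 1.96% for Cyp2j5, 5.2% for Cyp2j6, 11.7% for Cyp2r1, 12.9% for Cyp2j9 and 18.6% for Cyp2u1. Cyp2b10, the usual readout of CAR, rose with the ligand in each of the 4 ligand comparisons, by 6.98 on the log2 scale at day 5 and 2.44 at day 60 with CITCO, and by 8.35 at day 5 and 7.59 at day 60 with TCPOBOP. Its corn oil level at day 60 averaged 225 ± 16.5 FPKM in hCAR-TG and 12.9 ± 4.16 FPKM in WT (SD, n = 3). Hepatocyte markers were high in every group (6 of the 7 listed were in the files, with summed FPKM of 21553 to 76003). Transcripts of pancreas passed 100 FPKM in summed level in 3 day 5 libraries (hCAR-TG CITCO replicate 1, WT TCPOBOP replicate 2 and WT corn oil replicate 2). Intestine markers summed to 19.0 to 123 FPKM over all groups. In newborn WT livers these sums were 86.9 to 123 with TCPOBOP and 62.3 to 78.4 with corn oil. They went the other way in adult WT livers (26.5 to 32.4 with TCPOBOP and 39.7 to 53.3 with corn oil). In adult hCAR-TG livers they were 19.0 to 25.0 with CITCO and 28.4 to 34.4 with corn oil. In newborn hCAR-TG livers they were 53.3 to 66.3 with CITCO and 74.0 to 105.8 with corn oil. None of these groups overlapped, and the part of these transcripts was not tested. Kidney markers summed to at most 2.11 FPKM and lung markers to at most 3.2 FPKM, the latter in WT corn oil at day 5. Lung marker sums did not overlap in newborn hCAR-TG livers (1.97 to 2.46 with CITCO and 0.628 to 0.853 with corn oil). In adult WT livers they were 0.157 to 0.261 with TCPOBOP and 0.345 to 0.524 with corn oil, also without overlap. Their part was not tested. The club cell gene Scgb3a2 was listed at 0 in all groups. The lung marker Scgb1a1 was at 0 in all groups except WT corn oil at day 5.

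Cyp2e1 had the highest FPKM of the 7 genes in all 8 groups. It had 839 FPKM or more in every library and reached 3705 FPKM in a WT corn oil library at day 60. Under corn oil at day 60 the order of mean FPKM was the same in both genotypes for the first 5 genes: Cyp2e1, Cyp2f2, Cyp2j5, Cyp2j6 and Cyp2r1. Under corn oil at day 5 Cyp2f2 stood second in hCAR-TG (64.8 ± 19.0 FPKM) above Cyp2j5 (33.6 ± 5.55), and in WT (23.2 ± 3.61) it stood below Cyp2j5 (35.3 ± 6.69, SD, n = 3 each). Of the 48 pairs of neighbours in these orders (6 in each group), 5 overlapped between libraries. These were Cyp2u1 and Cyp2j9 in the hCAR-TG corn oil groups at both ages, Cyp2r1 and Cyp2u1 in WT corn oil at day 60, Cyp2j5 and Cyp2f2 in WT TCPOBOP at day 5, and Cyp2r1 and Cyp2j9 in WT corn oil at day 5. The other Cyp2j genes were near 0: Cyp2j8 reached 0.293 FPKM, Cyp2j13 0.014 FPKM and Cyp2j12 0.0131 FPKM at most, and Cyp2j11 was listed at 0 in all libraries.

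**Figure D1:**
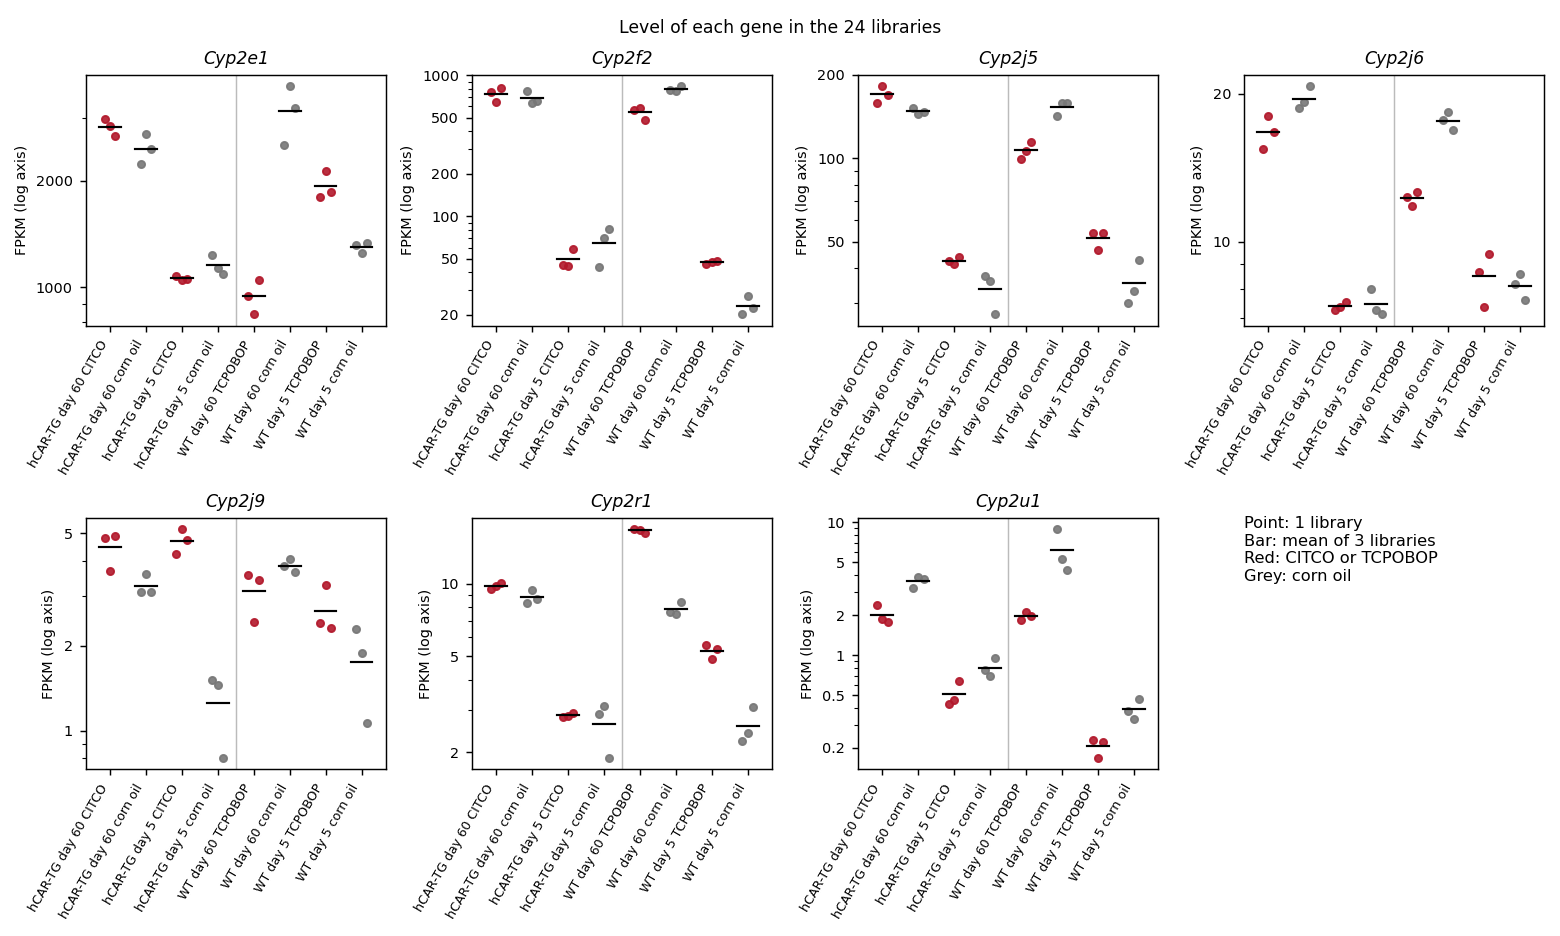
FPKM (log axis) of the 7 genes in each library, with a bar at the mean of 3 replicates, red for a ligand and grey for corn oil, hCAR-TG left and WT right of the line. Cyp2f2 at day 60 lies at 483 FPKM or above in every library and at day 5 at 80.7 FPKM or below.

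Maturation from day 5 to day 60 raised these genes in both genotypes, and Cyp2f2 by far the most. Cyp2f2 had 774, 637 and 660.2 FPKM in hCAR-TG corn oil livers at day 60, against 43.7, 69.9 and 80.7 FPKM at day 5. In WT it had 782, 769 and 838 FPKM at day 60, against 20.1, 27.2 and 22.2 FPKM at day 5. The age groups lie far apart in both genotypes. The difference on the log2(FPKM + 1) scale was 3.43 ± 0.17 in hCAR-TG and 5.05 ± 0.17 in WT (± SE, limma, adjusted p = 2.51e-13 and 6.77e-16).

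Cyp2e1 was already high in newborn liver and changed less with age. It had 2225, 2718 and 2455 FPKM at day 60 in hCAR-TG, against 1235, 1134 and 1093 FPKM at day 5, a log2 difference of 1.09 ± 0.11 (limma, adjusted p = 1.47e-08). It had 2532, 3705 and 3202 FPKM at day 60 in WT, against 1314, 1252 and 1334 FPKM at day 5, a log2 difference of 1.26 ± 0.11 (limma, adjusted p = 1.93e-09). Cyp2j5, an arachidonic acid epoxygenase of mouse liver and kidney, averaged 148 ± 4.002 FPKM at day 60 and 33.6 ± 5.55 at day 5 in hCAR-TG, and 153 ± 9.80 at day 60 and 35.3 ± 6.69 at day 5 in WT (SD, n = 3 each). Its log2 differences of 2.12 and 2.10 were nearly equal. Cyp2j6 (1.28 and 1.03), Cyp2r1, the vitamin D 25-hydroxylase (1.45 and 1.31), and Cyp2j9 (0.93 and 0.84) were also higher at day 60 in hCAR-TG and in WT.

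Cyp2u1 reached 1 FPKM in 12 of 12 libraries at day 60 and in 0 of 12 at day 5. It passed the filter only through the adult libraries, so its age difference (1.35 in hCAR-TG, 2.31 in WT) follows in part from that filter. With a pseudocount of 0.1 its difference was 2.04 in hCAR-TG and 3.61 in WT. The groups of all 7 genes were apart between ages in both genotypes. All 7 genes were called higher at day 60 in both genotypes. Of all 12282 genes tested, 24.3% were called higher, 47.3% lower and 71.6% in all in hCAR-TG, against 25.2% higher, 44.9% lower and 70.2% in all in WT. Groups did not overlap in 70.5% of genes in hCAR-TG and 74.3% in WT. The median change of all genes with age was -0.17 in hCAR-TG as deposited and -0.06 after rescaling by median of ratios, and the median of the 7 members was 1.35 as deposited. Markers of other cells moved with age as well: summed FPKM of 6 erythroid markers was 723 to 955 at day 60 and 7515 to 9378 at day 5 in hCAR-TG corn oil livers, and 954 to 1303 at day 60 and 3078 to 4157 at day 5 in WT. Hepatocyte marker sums were lower at day 60 too. In hCAR-TG they were 43200 to 50500 FPKM at day 60 and 67218 to 69144 at day 5. In WT they were 38190 to 46749 at day 60 and 74718 to 76003 at day 5. Neutrophil, Kupffer cell, stellate cell, endothelial and cholangiocyte sums were also lower at day 60 in both genotypes, without overlap. In whole liver, fewer cells of a type and less RNA per cell cannot be told apart. The part of these cells in the age differences was not tested. The number that closes the read file names, whose meaning is not stated, could be fitted beside age in WT but not in hCAR-TG. With it Cyp2j9 in WT had an adjusted p of 0.0527 (limma, range over 13 alternatives 2.84e-05 to 0.0527).

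**Figure D2:**
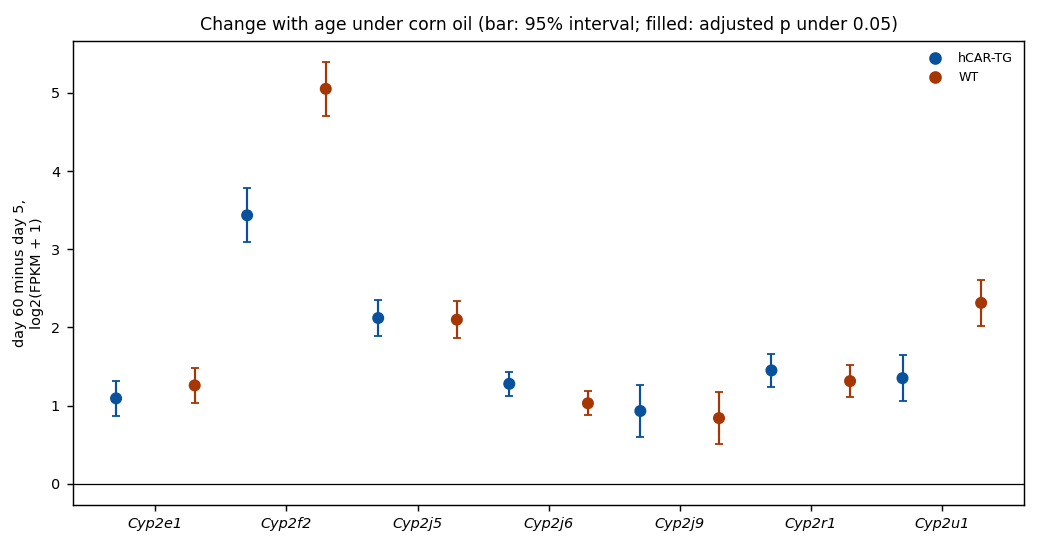
Difference in log2(FPKM + 1) between day 60 and day 5 under corn oil for the 7 genes (x axis), hCAR-TG in blue and WT in brown, with 95% intervals and filled points where the adjusted p was under 0.05. All points lie above 0, and those of Cyp2f2 (3.43 in hCAR-TG, 5.05 in WT) stand highest.

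The rise of Cyp2f2 with age was smaller in hCAR-TG than in WT, by a log2 difference of -1.62 ± 0.23 (limma, adjusted p = 0.000184), and so was that of Cyp2u1 (-0.96 ± 0.20, adjusted p = 0.0049). Of all genes, 4.84% were called lower and 6.94% in all. Cyp2f2 averaged 691 ± 73.6 FPKM in hCAR-TG and 796 ± 36.6 in WT at day 60, where the groups overlapped. At day 5 it averaged 64.8 ± 19.0 FPKM in hCAR-TG and 23.2 ± 3.61 in WT (SD, n = 3 each), without overlap. Its age difference between genotypes rests on the same newborn libraries as its genotype difference at day 5, so these are not separate results. The Cyp2u1 difference had an adjusted p of 0.0724 when only the 4 groups compared were fitted (range over 18 alternatives 0.000538 to 0.0724). Cyp2u1 lay under 1 FPKM in all newborn libraries and passed the filter only through the adult ones. The log2(FPKM + 1) scale compresses its newborn values, so the size of its difference depends on that scale. The other 5 members had differences between -0.17 (Cyp2e1) and 0.25 (Cyp2j6) that did not pass. The file number could not be told apart from this difference between genotypes in the change with age.

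In newborn WT liver TCPOBOP raised Cyp2e1, Cyp2f2, Cyp2j5, Cyp2j9 and Cyp2r1. Cyp2f2 had 45.7, 47.6 and 48.3 FPKM with TCPOBOP, against 20.1, 27.2 and 22.2 FPKM with corn oil. Cyp2r1 had 5.59, 4.88 and 5.39 FPKM with TCPOBOP, against 2.22, 2.40 and 3.08 FPKM with corn oil. Both were about doubled in mean FPKM (ratios of 2.04 and 2.06), with log2 changes of 1.01 ± 0.17 and 0.82 ± 0.10 (limma, adjusted p = 6.99e-05 and 1.46e-06). Cyp2e1 had 1800.4, 2129 and 1857 FPKM with TCPOBOP, against 1314, 1252 and 1334 FPKM with corn oil, a ratio of 1.48 (log2 change 0.57 ± 0.11, limma, adjusted p = 0.000341). Cyp2j5 had 53.8, 46.5 and 53.9 FPKM with TCPOBOP, against 29.9, 33.2 and 42.8 FPKM with corn oil, a ratio of 1.45 (log2 change 0.54 ± 0.11, limma, adjusted p = 0.000728). None of these 4 genes overlapped between the groups.

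The lower members gave less firm values in newborn WT liver. Cyp2j9 had 2.40, 3.27 and 2.31 FPKM with TCPOBOP, against 2.30, 1.89 and 1.07 FPKM with corn oil (log2 change 0.43 ± 0.16, limma, adjusted p = 0.0389). Its call ended without WT corn oil replicate 3 (0.24, adjusted p = 0.245), without corn oil replicate 2 (0.0514), without TCPOBOP replicate 2 (0.182), after rescaling by median of ratios (0.0839) and in 3 other alternatives, with adjusted p between 0.0122 and 0.245 over 12 alternatives. Cyp2j6 averaged 8.50 ± 1.06 FPKM with TCPOBOP and 8.13 ± 0.505 with corn oil (SD, n = 3), a log2 change of 0.05 with a 95% interval of -0.10 to 0.21. Cyp2u1 had 0.228, 0.169 and 0.222 FPKM with TCPOBOP, against 0.377, 0.328 and 0.471 FPKM with corn oil. These Cyp2u1 groups do not overlap, yet the log2(FPKM + 1) scale compresses values under 1 FPKM and the change of -0.21 did not pass (limma, adjusted p = 0.28). It passed with a pseudocount of 0.1 (-0.68, adjusted p = 0.0117, range over 12 alternatives 0.0117 to 0.468) and when only the groups compared were fitted (adjusted p = 0.0395).

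With 5 of 7 members higher and 0 lower, the newborn TCPOBOP response stands beside 24.6% of all genes called higher and 11.3% lower (35.9% in all). The median change was 0.54 over the 7 members and 0.04 over all genes tested, and 6 of 7 members did not overlap, against 47.6% of all genes. Of the calls over all genes, 68.6% were higher as deposited and 52.0% after rescaling by median of ratios. Summed FPKM of 6 hepatocyte markers was 55473 to 59395 with TCPOBOP and 74718 to 76003 with corn oil, and its part in the member changes was not tested. Kupffer cell markers summed to 470.3 to 599 FPKM with TCPOBOP and 393 to 417 with corn oil, and stellate cell markers to 146 to 197 with TCPOBOP and 224 to 237 with corn oil, and the part of these cells was not tested. The file number could not be told apart from the ligand in this comparison. Without the 3 libraries with pancreatic transcripts, which was chosen after seeing the data, the calls of Cyp2e1, Cyp2f2, Cyp2j5 and Cyp2r1 held and that of Cyp2j9 did not (adjusted p = 0.195).

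In adult WT liver TCPOBOP lowered 5 of the 7 genes, and Cyp2e1 most. Cyp2e1 had 948, 839 and 1047 FPKM with TCPOBOP, against 2532, 3705 and 3202 FPKM with corn oil. Mean FPKM was 3.33-fold lower (log2 change -1.72 ± 0.11, limma, adjusted p = 3.73e-11). All 3 treated adult livers lay below every newborn WT corn oil library (1252 to 1334 FPKM). Cyp2u1, the fatty acid hydroxylase, had 1.83, 2.12 and 1.95 FPKM with TCPOBOP, against 8.84, 5.25 and 4.37 FPKM with corn oil. It was 3.13-fold lower in mean FPKM (log2 change -1.22 ± 0.14, limma, adjusted p = 3.78e-07), and its corn oil replicates spread widely.

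Cyp2f2 had 562, 588 and 483 FPKM with TCPOBOP, against 782, 769 and 838 FPKM with corn oil (log2 change -0.55 ± 0.17, limma, adjusted p = 0.00917). Cyp2j5 had 99.3, 107 and 115 FPKM with TCPOBOP, against 142, 159 and 159 FPKM with corn oil (-0.51 ± 0.11, limma, adjusted p = 0.000738). Cyp2j6 had 12.3, 11.8 and 12.6 FPKM with TCPOBOP, against 17.7, 18.3 and 16.9 FPKM with corn oil (-0.49 ± 0.07, limma, adjusted p = 1.3e-05). These 3 genes were lowered by similar amounts, 1.43-fold to 1.46-fold in mean FPKM, and no library of one group reached the other. Cyp2j9 had 3.57, 2.42 and 3.41 FPKM with TCPOBOP, against 3.82, 4.04 and 3.64 FPKM with corn oil, and its change of -0.24 (95% interval -0.56 to 0.09) did not pass.

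Cyp2r1 was the exception. It had 16.9, 16.8 and 16.3 FPKM with TCPOBOP, against 7.62, 7.47 and 8.40 FPKM with corn oil. Mean FPKM was 2.13-fold higher (log2 change 1.003 ± 0.10, limma, adjusted p = 4.13e-08), which raised Cyp2r1 above Cyp2j6 in that group alone among the 8. The TCPOBOP libraries of Cyp2r1 were the highest of all 24.

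In adult WT liver 5 of 7 members were lower and 1 was higher, while 15.8% of all genes were called lower and 31.4% higher (47.2% in all). The median change was -0.51 over the members and 0.06 over all genes tested. The groups did not overlap in 7 of 7 members and in 60% of all genes. Of the calls over all genes, 66.5% were higher as deposited and 53.0% after rescaling. Hepatocyte markers moved with the group: their summed FPKM was 21553 to 23705 with TCPOBOP and 38190 to 46749 with corn oil, and albumin averaged 11553 ± 1281 FPKM with TCPOBOP and 28906 ± 4405 with corn oil (SD, n = 3). Cholangiocyte markers summed to 40.4 to 61.1 FPKM with TCPOBOP and 24.05 to 29.97 with corn oil, and neutrophil markers to 7.67 to 13.6 with TCPOBOP and 5.32 to 7.13 with corn oil. Lower with TCPOBOP were erythroid markers (486 to 838 FPKM with TCPOBOP and 954 to 1303 with corn oil), endothelial markers (93.2 to 97.7 with TCPOBOP and 112 to 126 with corn oil) and stellate cell markers (64.4 to 71.8 with TCPOBOP and 80.3 to 92.1 with corn oil). None of these sums overlapped, and their part in the member changes was not tested.

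The difference between the ages was itself tested for TCPOBOP in WT. The response at day 60 minus that at day 5 was -2.29 ± 0.15 for Cyp2e1 (limma, adjusted p = 7.13e-10), -1.56 ± 0.23 for Cyp2f2 (4.45e-05), -1.05 ± 0.16 for Cyp2j5 (4.37e-05), -1.02 ± 0.20 for Cyp2u1 (0.000737), -0.54 ± 0.11 for Cyp2j6 (0.000619) and -0.66 ± 0.22 for Cyp2j9 (0.0347). Cyp2r1 had nearly the same response at both ages, with a difference of 0.18 and a 95% interval of -0.11 to 0.48. Thus 6 of 7 members had a lower response in adults, where 9.76% of all genes did, 13.7% had a higher one and 23.4% were called either way. Cyp2u1 reached 1 FPKM in 0 of 12 newborn libraries, where the log2(FPKM + 1) scale compresses changes, so part of its difference can follow from that. The Cyp2u1 difference ran from -1.20 to -0.76 over 18 alternatives (limma, adjusted p between 5.17e-05 and 0.0321). The Cyp2j9 difference ended without WT day 5 corn oil replicate 3, day 5 TCPOBOP replicate 2, day 60 corn oil replicate 1 or 2, or day 60 TCPOBOP replicate 2 (adjusted p between 0.0119 and 0.116 over 18 alternatives). The comparisons at both ages used different corn oil groups, and the file number could not be told apart from this difference.

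**Figure D3:**
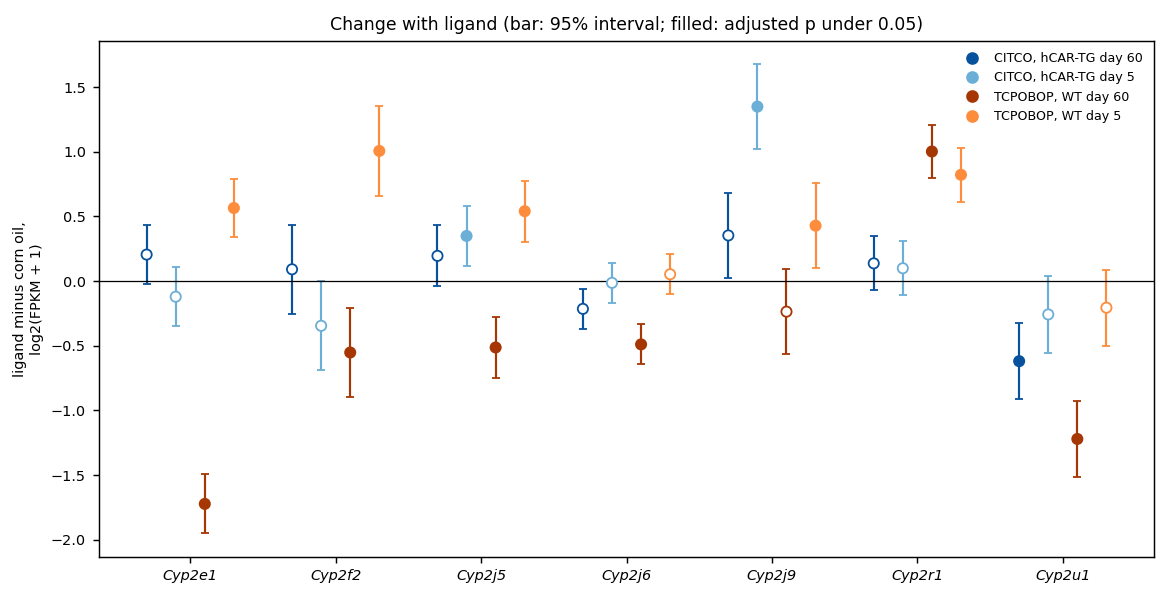
Difference in log2(FPKM + 1) between ligand and corn oil for the 7 genes, CITCO in hCAR-TG in blue and TCPOBOP in WT in brown and orange, with 95% intervals and filled points where the adjusted p was under 0.05. Cyp2e1 with TCPOBOP lies at -1.72 at day 60 and 0.57 at day 5, Cyp2r1 is high with TCPOBOP at both ages, and Cyp2j9 is highest with CITCO at day 5.

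With CITCO in newborn hCAR-TG liver, Cyp2j9 had the largest change of the 7 members. This gene had 4.21, 5.16 and 4.72 FPKM with CITCO, against 1.51, 1.45 and 0.803 FPKM with corn oil. Mean FPKM was 3.75-fold higher (log2 change 1.35 ± 0.16, limma, adjusted p = 6.88e-06), and the groups lay far apart. For comparison, the adult groups averaged 3.13 to 4.46 FPKM, the highest being hCAR-TG with CITCO. Adult corn oil libraries reached at most 4.04 FPKM in WT and 3.57 FPKM in hCAR-TG, below every newborn library with CITCO. Cyp2j9 made up 8.57 ± 0.887% of the summed FPKM of the 3 Cyp2j genes with CITCO and 2.91 ± 0.545% with corn oil (SD, n = 3), and its share was below that of the CITCO group in every other group (1.91% to 4.31% on average).

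Its neighbour Cyp2j5 had 42.6, 41.7 and 43.9 FPKM with CITCO, against 37.7, 35.9 and 27.3 FPKM with corn oil (log2 change 0.35 ± 0.11, limma, adjusted p = 0.0388). That call ended without hCAR-TG corn oil replicate 3 (0.21, adjusted p = 0.195) and without any 1 of the 3 CITCO libraries, and the change was 0.63 with the file number as a factor, with adjusted p between 0.00118 and 0.195 over 14 alternatives. Cyp2j6 averaged 7.38 ± 0.127 FPKM with CITCO and 7.47 ± 0.491 with corn oil, with a 95% interval of the change of -0.17 to 0.14. Cyp2e1 averaged 1060.1 ± 14.1 FPKM with CITCO and 1154 ± 73.4 with corn oil (SD, n = 3), a change of -0.12 with a 95% interval of -0.35 to 0.11. Cyp2f2 had 45.0, 44.7 and 59.0 FPKM with CITCO, against 43.7, 69.9 and 80.7 FPKM with corn oil (-0.35 ± 0.17, limma, adjusted p = 0.152). Corn oil replicate 1 (43.7 FPKM) lay just below the CITCO libraries while the other corn oil replicates lay above them, and without it the change was -0.60 (adjusted p = 0.00487, range over 14 alternatives 0.00487 to 0.559). With the file number fitted as a factor, the Cyp2f2 change was -0.70 (adjusted p = 0.016) and Cyp2r1 also passed (0.41, adjusted p = 0.0058), while it was 0.10 (adjusted p = 0.513) in the fit without it. Cyp2u1 had 0.426, 0.463 and 0.642 FPKM with CITCO, against 0.771, 0.701 and 0.942 FPKM with corn oil, and its change of -0.26 did not pass (limma, adjusted p = 0.212). Thus 2 of 7 members rose and 0 fell, with 8.27% of all genes called higher, 8.82% lower and 17.1% in all, and 4 of 7 did not overlap against 35% of all genes. Markers of other cells were lower with CITCO in these newborn livers: erythroid markers summed to 5394 to 6193 FPKM with CITCO and 7515 to 9378 with corn oil, neutrophil markers to 557 to 1076 with CITCO and 1114 to 1451 with corn oil, and sinusoidal endothelial markers to 117 to 126 with CITCO and 147 to 168 with corn oil. None of these sums overlapped, and their part in the member changes was not tested.

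In adult hCAR-TG liver Cyp2u1 was the 1 member that passed. It had 2.39, 1.86 and 1.76 FPKM with CITCO, against 3.20, 3.86 and 3.75 FPKM with corn oil (log2 change -0.62 ± 0.14, limma, adjusted p = 0.00768). The groups do not overlap, but with the file number as a factor the change was -0.44 (adjusted p = 0.273, range over 13 alternatives 0.00615 to 0.273). Of all genes, 3.97% were called lower, 4.4% higher and 8.37% in all. Cyp2e1 had 2988, 2854 and 2669 FPKM with CITCO, against 2225, 2718 and 2455 FPKM with corn oil, a change of 0.21 with a 95% interval of -0.02 to 0.43 that excludes a fall of the size seen with TCPOBOP in WT. Cyp2j5 averaged 170.1 ± 12.03 FPKM with CITCO and 148 ± 4.002 with corn oil, and Cyp2j6 averaged 16.7 ± 1.29 with CITCO and 19.5 ± 1.07 with corn oil (SD, n = 3). Cyp2j9 averaged 4.46 ± 0.669 FPKM with CITCO and 3.25 ± 0.278 with corn oil, and Cyp2r1 averaged 9.78 ± 0.314 with CITCO and 8.81 ± 0.584 with corn oil. The groups of these 4 genes did not overlap, making 5 of 7 members against 31.9% of all genes, but their log2 changes of 0.20, -0.21, 0.35 and 0.14 did not pass. Cyp2f2 averaged 737 ± 87.3 FPKM with CITCO and 691 ± 73.6 with corn oil, and the groups overlapped. Summed FPKM of 6 hepatocyte markers was 36536 to 42034 with CITCO and 43200.4 to 50499.8 with corn oil at day 60, and 60782 to 63641 with CITCO and 67218 to 69144 with corn oil at day 5, and its part in these changes was not tested. Stellate cell markers at day 60 summed to 64.9 to 81.8 FPKM with CITCO and 84.0 to 134 with corn oil, and their part was not tested either. Between ages, the CITCO response differed for Cyp2j9 alone among the members, by -0.997 ± 0.22 at day 60 minus day 5 (limma, adjusted p = 0.00748), with 4.62% of all genes called lower, 5.37% higher and 9.99% in all.

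CITCO in hCAR-TG and TCPOBOP in WT were compared by the difference of their responses at each age, with 7 members tested at each and p-values adjusted over all genes. The labels give no doses, so doses may differ. At day 60 the corn oil groups already differed in Cyp2b10 (225 ± 16.5 FPKM in hCAR-TG, 12.9 ± 4.16 in WT, SD, n = 3). The part of this in the day 60 differences was not tested. At day 5 the CITCO response minus the TCPOBOP response was -1.35 ± 0.23 for Cyp2f2 (limma, adjusted p = 0.000232), -0.72 ± 0.14 for Cyp2r1 (0.000657) and -0.69 ± 0.15 for Cyp2e1 (0.00218), and it was 0.92 ± 0.22 for Cyp2j9 (0.00383). The 95% intervals of the other 3 were -0.52 to 0.14 for Cyp2j5, -0.29 to 0.15 for Cyp2j6 and -0.47 to 0.37 for Cyp2u1. The file number could not be told apart from the difference of responses at day 5. Of all genes, 11.5% were called higher, 22.2% lower and 33.7% in all, with 34.1% of the calls higher as deposited and 45.3% after rescaling. At day 60 the difference was 1.93 ± 0.15 for Cyp2e1 (limma, adjusted p = 6.28e-09), 0.71 ± 0.16 for Cyp2j5 (0.00157) and -0.87 ± 0.14 for Cyp2r1 (6.78e-05). These 3 differences kept their call in each of the 20 alternatives.

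The adult differences of Cyp2f2 (0.64 ± 0.23, limma, adjusted p = 0.0392), Cyp2u1 (0.60 ± 0.20, 0.0244), Cyp2j9 (0.59 ± 0.22, 0.0464) and Cyp2j6 (0.27 ± 0.11, 0.0491) were close to the threshold. Leaving out 1 of the 12 libraries ended the call of Cyp2f2 in 9 fits, all except those without WT TCPOBOP replicate 2, hCAR-TG corn oil replicate 1 or CITCO replicate 2. It ended that of Cyp2j6 in 9 fits, all except those without WT corn oil replicate 3, hCAR-TG corn oil replicate 3 or CITCO replicate 1. It ended that of Cyp2j9 in 8 fits, all except those without WT TCPOBOP replicate 1 or 3, hCAR-TG corn oil replicate 2 or CITCO replicate 2, and that of Cyp2u1 without replicate 1 of WT TCPOBOP, hCAR-TG corn oil or CITCO. Without WT corn oil replicate 1 the Cyp2u1 difference was 0.35. In all, 6 of 7 members had a higher and 1 a lower value with CITCO, where 9.77% of all genes were higher, 24.1% lower and 33.8% called in all (28.9% of all calls were higher as deposited and 43.2% after rescaling).

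Under corn oil 1 member passed the test between genotypes at each age. At day 5 Cyp2f2 averaged 64.8 ± 19.0 FPKM in hCAR-TG and 23.2 ± 3.61 in WT (SD, n = 3), a log2 difference of 1.41 ± 0.17 (limma, adjusted p = 7.35e-06), and every hCAR-TG library (43.7 FPKM or more) lay above every WT library (27.2 FPKM or less). Newborn WT livers with TCPOBOP averaged 47.2 ± 1.35 FPKM. Cyp2u1 at day 5 had 0.771, 0.701 and 0.942 FPKM in hCAR-TG, against 0.377, 0.328 and 0.471 FPKM in WT, 2.05-fold higher in mean FPKM. These groups do not overlap, but the difference of 0.37 on the log2(FPKM + 1) scale did not pass (limma, adjusted p = 0.102), while it passed with a pseudocount of 0.1 (0.88, adjusted p = 0.00727, range over 12 alternatives 0.00727 to 0.298). Of all genes, 8.29% were called higher in hCAR-TG, 2.27% lower and 10.6% in all, with 78.5% of the calls higher as deposited and 65.0% after rescaling. Erythroid markers were higher in the same libraries, 7515 to 9378 FPKM in hCAR-TG and 3078 to 4157 FPKM in WT over 6 genes, and neutrophil markers summed to 1114 to 1451 FPKM in hCAR-TG and 299 to 772 FPKM in WT. Hepatocyte markers summed to 67218 to 69144 FPKM in hCAR-TG and 74718 to 76003 FPKM in WT, without overlap. The part of these markers in the Cyp2f2 difference was not tested. The file number could not be told apart from the genotype at day 5.

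At day 60 Cyp2u1 had 3.20, 3.86 and 3.75 FPKM in hCAR-TG, against 8.84, 5.25 and 4.37 FPKM in WT (log2 difference -0.59 ± 0.14, limma, adjusted p = 0.0162), with 1.85% of all genes called lower, 3.05% higher and 4.9% in all. Without WT corn oil replicate 1, the highest library, the difference was -0.33. The call ended without hCAR-TG corn oil replicate 1 (-0.53, adjusted p = 0.101), when only the groups compared were fitted (0.245) and with the file number as a factor (0.387), and adjusted p ran from 0.00157 to 0.387 over 13 alternatives. Cyp2e1 averaged 2466 ± 247 FPKM in hCAR-TG and 3146 ± 589 in WT (SD, n = 3), a difference of -0.34 ± 0.11 that did not pass (adjusted p = 0.0823). It passed without WT corn oil replicate 1, the lowest WT library (-0.49, adjusted p = 0.00429, range over 14 alternatives 0.00429 to 0.414). At day 5 and at day 60, 3 of 7 members did not overlap between genotypes, against 21.7% and 24.9% of all genes.

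The share of P450 transcripts held by Cyp2e1 was lower with the ligand in each of the 4 comparisons, also where its own level was higher. Over 104 Cyp genes, summed FPKM averaged 30443 with CITCO and 15256 with corn oil in adult hCAR-TG livers, 8596 with CITCO and 4966 with corn oil in newborn hCAR-TG livers, 37833 with TCPOBOP and 15551 with corn oil in adult WT livers, and 22360.1 with TCPOBOP and 4889 with corn oil in newborn WT livers. Cyp2e1 made up 9.33 ± 0.761% with CITCO and 16.2 ± 1.504% with corn oil in adult hCAR-TG livers, and 12.4 ± 0.748% with CITCO and 23.3 ± 1.69% with corn oil in newborn hCAR-TG livers. It made up 2.51 ± 0.360% with TCPOBOP and 20.1 ± 2.34% with corn oil in adult WT livers, and 8.63 ± 0.828% with TCPOBOP and 26.6 ± 0.675% with corn oil in newborn WT livers (SD, n = 3 each). No ligand group overlapped its corn oil group. Among the Cyp genes Cyp2e1 ranked 7 to 9 in adult WT livers with TCPOBOP and 1 or 2 with corn oil, and it ranked 3 or 4 in newborn WT livers with TCPOBOP and 1 with corn oil. In hCAR-TG it ranked 3 in all adult livers with CITCO and 1 or 3 with corn oil, and 2 in all newborn livers with CITCO and 1 with corn oil. These shares are given without a test.

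The ratio of Cyp2e1, the gene known from the central zone, to Cyp2f2, the gene known from the portal zone, differed most between ages. It averaged 3.62 ± 0.702 at day 60 and 19.4 ± 7.86 at day 5 in hCAR-TG under corn oil, and 3.96 ± 0.798 at day 60 and 57.1 ± 9.90 at day 5 in WT (SD, n = 3). TCPOBOP livers had a lower ratio than corn oil livers at both ages, 1.76 ± 0.376 against 3.96 ± 0.798 at day 60 and 40.8 ± 3.37 against 57.1 ± 9.90 at day 5, with no overlap. With CITCO it was 3.90 ± 0.585 against 3.62 ± 0.702 at day 60 and 21.8 ± 3.35 against 19.4 ± 7.86 at day 5, and the groups overlapped. Whole-liver RNA does not show where in the lobule a transcript was.

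**Figure D4:**
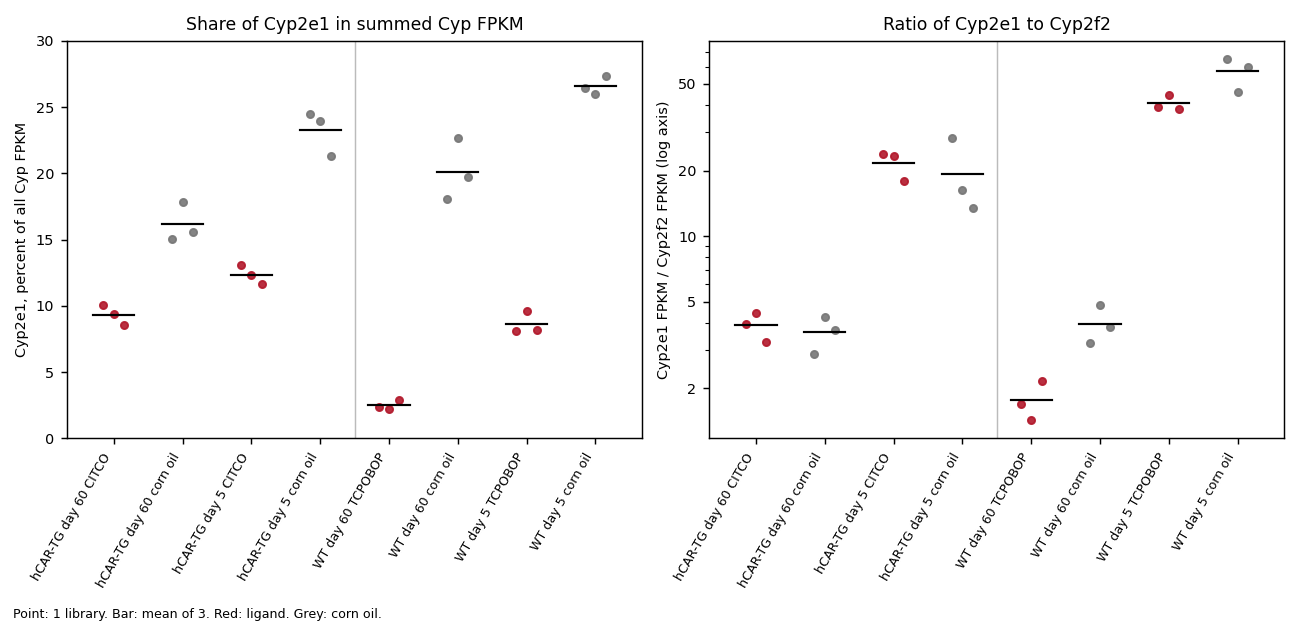
Left, Cyp2e1 as percent of the summed FPKM of 104 Cyp genes, and right, the ratio of Cyp2e1 to Cyp2f2 FPKM (log axis), for each library with a bar at the mean of 3. The share is 2.51% in adult WT livers with TCPOBOP, the lowest of the 8 groups, and the ratio is 57.1 in newborn WT livers with corn oil, the highest.

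Other genes known from the central and portal zones were counted from lists of 18 each, which do not hold the 7 members. With TCPOBOP in adult WT liver, 12 of 18 pericentral genes fell and 5 rose (median -0.50, all genes 0.06). Among those that fell were Notum, a secreted inhibitor of WNT (2.62 ± 0.231 FPKM with TCPOBOP and 13.0 ± 0.530 with corn oil), the glutamate transporter Slc1a2 (4.90 ± 0.538 with TCPOBOP and 23.5 ± 3.52 with corn oil) and the ornithine aminotransferase Oat (48.5 ± 2.62 with TCPOBOP and 263 ± 54.6 with corn oil, SD, n = 3). Of the portal list 11 of 18 fell and 4 rose (median -0.70), those that fell including Pigr, the receptor that carries IgA into bile (119.8 ± 9.03 FPKM with TCPOBOP and 351 ± 69.7 with corn oil), and the urea cycle enzyme Arg1 (363 ± 21.2 FPKM with TCPOBOP and 575 ± 12.6 with corn oil). Of all genes, 31.4% were called higher and 15.8% lower. Cyp2e1 and Cyp2f2 also fell. Hepatocyte marker sums were lower with TCPOBOP in these libraries as well, and their part in these changes was not tested.

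In newborn WT liver with TCPOBOP the lists went different ways. Of the pericentral list 12 of 18 fell and 2 rose (median -0.42, all genes 0.04), while Cyp2e1 rose. Of all genes, 24.6% were called higher and 11.3% lower. Notum averaged 1.45 ± 0.0921 FPKM with TCPOBOP and 12.5 ± 2.31 with corn oil, and Lgr5, a WNT target, 0.359 ± 0.0430 with TCPOBOP and 1.78 ± 0.155 with corn oil (SD, n = 3). The 2 genes that rose were Cyp1a2 (347 ± 28.8 FPKM with TCPOBOP and 60.7 ± 14.9 with corn oil) and Lect2 (log2 change 0.73), which was named after its value was seen. Of the portal list 8 of 18 rose and 1 fell (median 0.28), with Sds, a serine dehydratase, at 48.3 ± 1.35 FPKM with TCPOBOP and 14.9 ± 8.16 with corn oil. Under CITCO in hCAR-TG 6 pericentral genes rose and 4 fell at day 5, 2 rose and 1 fell at day 60, and of the portal genes 7 rose and 2 fell at day 5. At day 60 with CITCO 3 portal genes fell and the other 15 were not called, with 10 of the 18 at an unadjusted p under 0.05 (limma). Of all genes, 8.27% were higher and 8.82% lower with CITCO at day 5, and 4.4% higher and 3.97% lower at day 60. With age under corn oil, 11 of 18 portal genes rose and 4 fell in hCAR-TG, and 12 rose and 3 fell in WT. Of the pericentral list 8 rose and 6 fell in hCAR-TG, and 6 rose and 5 fell in WT. Of all genes, 24.3% were higher and 47.3% lower with age in hCAR-TG, and 25.2% higher and 44.9% lower in WT.

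**Figure D5:**
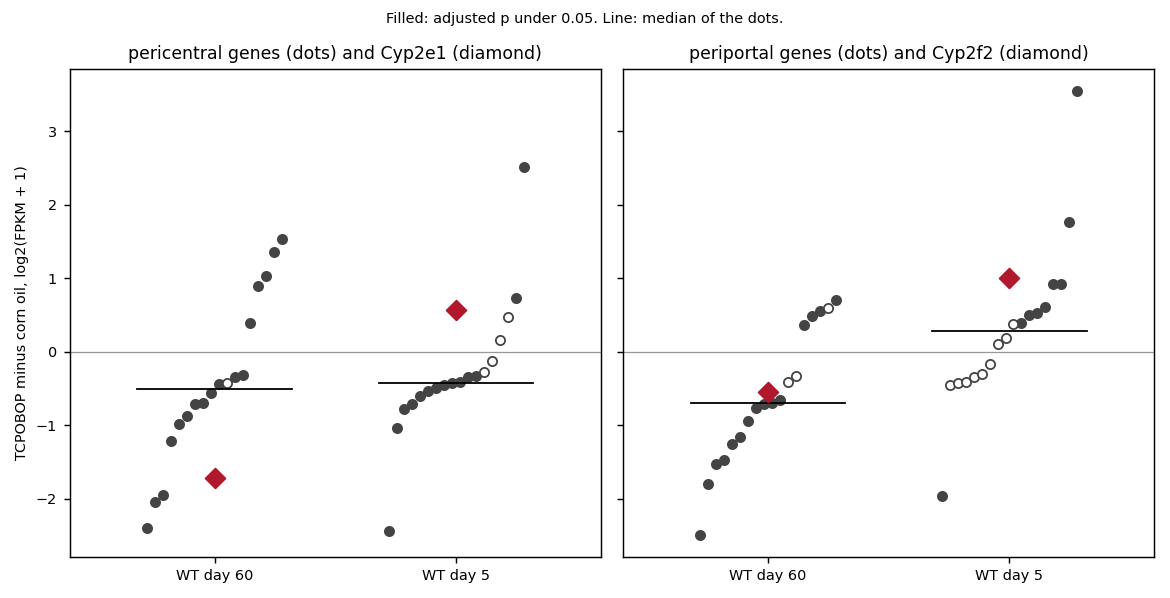
Difference in log2(FPKM + 1) between TCPOBOP and corn oil in WT livers at day 60 and day 5 for 18 pericentral genes (left) and 18 portal genes (right), with Cyp2e1 and Cyp2f2 as red diamonds, filled where the adjusted p was under 0.05 and a line at the median. Cyp2e1 at day 5 (0.57) lies above the median of the pericentral genes (-0.42).

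Genes of the members' pathways were called in both directions, and their counts stand beside these shares of all genes: 31.4% higher and 15.8% lower with TCPOBOP at day 60, 24.6% and 11.3% at day 5, 4.4% and 3.97% with CITCO at day 60, and 8.27% and 8.82% at day 5. Among 16 genes for electron supply and haem, which every P450 needs, 10 rose and 2 fell with TCPOBOP at day 60 and 10 rose and 1 fell at day 5, and with CITCO 4 rose and 2 fell at day 60 and 6 rose and 2 fell at day 5. Por, the P450 reductase, averaged 389 ± 23.2 FPKM with TCPOBOP and 60.2 ± 13.4 with corn oil in adult WT livers (log2 change 2.69). Among 12 genes for ethanol, acetone and aldehyde oxidation, which share substrates with CYP2E1, 5 rose and 6 fell with TCPOBOP at day 60 and 5 rose and 5 fell at day 5, and with CITCO 1 rose and 2 fell at day 60 and 2 rose and 3 fell at day 5. The alcohol dehydrogenase Adh1 rose at day 5 (804 ± 40.3 FPKM with TCPOBOP and 478 ± 15.5 with corn oil), and Adh4 fell at day 60 (31.6 ± 8.58 with TCPOBOP and 105.7 ± 12.6 with corn oil, SD, n = 3).

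Of 18 genes of the arachidonate epoxide pathway, in which the CYP2J enzymes act, 17 were tested, and 5 rose and 8 fell with TCPOBOP at day 60 and 5 rose and 3 fell at day 5. With CITCO 2 rose and 1 fell at day 60 and 4 rose and 5 fell at day 5. Of all genes with TCPOBOP, 31.4% were higher and 15.8% lower at day 60, and 24.6% higher and 11.3% lower at day 5. The epoxygenase Cyp2c44 fell at day 60 (37.6 ± 6.76 FPKM with TCPOBOP and 150.1 ± 29.8 with corn oil), as did Ephx2, the soluble epoxide hydrolase (158 ± 15.8 with TCPOBOP and 314 ± 24.1 with corn oil). Ephx1, the microsomal epoxide hydrolase, rose in all 4 ligand comparisons, by 1.46 at day 60 and 0.98 at day 5 with CITCO and by 2.31 at day 60 and 2.65 at day 5 with TCPOBOP. Of 10 vitamin D genes, 5 were tested. Cyp27a1, a sterol hydroxylase that can also 25-hydroxylate vitamin D, averaged 62.7 ± 7.94 FPKM with TCPOBOP and 16.2 ± 2.89 with corn oil at day 5, and the vitamin D binding protein Gc fell at both ages (-0.45 at day 60 and -0.34 at day 5), while of the 5 genes 1 rose and 3 fell at day 60 and 1 rose and 1 fell at day 5. With CITCO 1 of the 5 fell at day 60 and 1 rose at day 5. The 1-hydroxylase Cyp27b1 reached 0.043 FPKM at most, the vitamin D receptor Vdr 0.183 FPKM, and Cyp24a1 was listed at 0.

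Of 9 other Cyp2 genes outside the CAR families, 5 were tested. With TCPOBOP 3 rose and 1 fell at day 60 and 4 rose and 0 fell at day 5, and with CITCO 4 rose at day 60, where 4.4% of all genes did. With CITCO at day 5 limma called 0 of the 5 in either direction, with 2 at an unadjusted p under 0.05. With TCPOBOP 31.4% of all genes were higher and 15.8% lower at day 60, and 24.6% higher and 11.3% lower at day 5. Cyp2d26 fell like most members at day 60 (251.8 ± 15.6 FPKM with TCPOBOP and 420.4 ± 48.9 with corn oil), while Cyp2d10 rose (583.5 ± 7.52 with TCPOBOP and 428.9 ± 9.03 with corn oil, SD, n = 3). Among 20 liver transcription factors 2 rose and 9 fell with TCPOBOP at day 60 and 3 rose and 7 fell at day 5, and with CITCO 2 rose at day 60 and 2 fell at day 5. Cebpa, a factor of mature hepatocytes, fell at both ages (-0.78 at day 60, -0.87 at day 5), as did Ppara (-1.67 at day 60, -0.998 at day 5) and the CAR gene Nr1i3 itself (-1.59 at day 60, -1.81 at day 5).

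Across the 24 libraries, which share their groups and the large age difference, the members were alike to different degrees, and the values are a description. Cyp2j5 correlated with Cyp2j6 (Pearson r = 0.955 on log2(FPKM + 1)) and with Cyp2f2 (0.949), and Cyp2e1 least with Cyp2r1 (0.321) and Cyp2j9 (0.384). After the mean of each age was subtracted, Cyp2e1 still went with Cyp2j6 (0.794) and Cyp2j5 (0.741), Cyp2f2 did not go with Cyp2j5 (0.229), and Cyp2r1 ran against Cyp2u1 (-0.646). Of 12275 other genes tested, the one most like Cyp2r1 was Idh1 (r = 0.991), most like Cyp2f2 Fn3k (0.988), most like Cyp2j5 Mdh1 (0.987), most like Cyp2j6 Sucnr1 (0.98), most like Cyp2u1 Dnajb2 (0.955), most like Cyp2e1 Serping1 and Ivd (0.898 each) and most like Cyp2j9 Clk1 (0.829). With age means subtracted, the first genes were Slc23a1 for Cyp2r1 (0.97), Rdh7 for Cyp2e1 (0.956), Otc for Cyp2j5 (0.914), 3110002H16Rik for Cyp2u1 (0.895), Gm10681 for Cyp2j6 (0.893), Zim1 for Cyp2j9 (0.83) and Abcb10 for Cyp2f2 (0.816).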

How the data were processed

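Liver RNA was extracted with RNA Bee, made into libraries with a TruSeq Stranded mRNA kit and sequenced on an Illumina instrument, per the labels' protocols. The authors deposited 1 table per library with FPKM values, an interval and a status for each of 24885 entries, and the submitters' processing notes name build mm10. The aligner, the quantifier and its annotation are not given in the sources used here, and read depth is unknown. Entries of 1 symbol were summed (279 symbols), 5 genes with a failed status were left out, and 24339 genes remained.

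Values were tested as log2(FPKM + 1), where the pseudocount of 1 understates changes of genes near or under 1 FPKM. The test kept the 12282 genes that reached 1 FPKM in 3 or more libraries. A model with 8 groups and 16 residual degrees of freedom was fitted to all 24 libraries with limma 3.58.1 (R 4.3.3), with trend and robust moderation, and 13 comparisons were made. Adjusted p-values are Benjamini-Hochberg values over all tested genes, two-sided, and a call is an adjusted p under 0.05. Ratios of FPKM are those of group means. The script for the fit was tested on simulated data. The changes in it were placed only in genes with a higher mean level than Cyp2u1, Cyp2j9 and Cyp2r1. It therefore does not bear on calls of genes as low as these. Tables were handled in Python 3.11.15 with pandas 2.3.3, numpy 2.4.6 and scipy 1.17.1, and figures were drawn with matplotlib 3.10.9.

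The 7 members were described in every comparison, and of each gene list the counts and up to 3 called genes with the smallest adjusted p. The members and lists were chosen with earlier results of these data known. The fits were repeated with only the libraries compared, with a replicate block, with the number that closes the read file name as a factor, and without each library in turn. They were also repeated without the filter or with one at 5 FPKM, with 0.1 as pseudocount, and on values rescaled between libraries (median of ratios). Leaving out the libraries with over 100 FPKM of pancreatic transcripts was added after seeing the data.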

Additional observations from a re-analysis of the deposited data

Results flagged for a closer look

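Each difference here passed a test of the difference between responses or between age effects itself (limma, adjusted p under 0.05), on the log2(FPKM + 1) scale. The response to TCPOBOP in WT at day 60 minus that at day 5 differed for Cyp2e1 (-2.29), Cyp2f2 (-1.56), Cyp2j5 (-1.05), Cyp2u1 (-1.02), Cyp2j9 (-0.66) and Cyp2j6 (-0.54). Cyp2u1 lay under 1 FPKM in the newborn libraries, where this scale compresses changes. The response to CITCO in hCAR-TG at day 60 minus that at day 5 differed for Cyp2j9 (-1.0). At day 5 the response to CITCO in hCAR-TG minus that to TCPOBOP in WT differed for Cyp2f2 (-1.35), Cyp2r1 (-0.72), Cyp2e1 (-0.69) and Cyp2j9 (0.92). At day 60 it differed for Cyp2e1 (1.93), Cyp2j5 (0.71), Cyp2f2 (0.64), Cyp2u1 (0.60), Cyp2j9 (0.59), Cyp2j6 (0.27) and Cyp2r1 (-0.87). Without 1 library this day 60 call ended in 9 of 12 fits for Cyp2f2 and in 9 for Cyp2j6. It ended in 8 for Cyp2j9 and in 3 for Cyp2u1. The call of Cyp2j9 for TCPOBOP between ages ended in 5 of 12 such fits. The change with age under corn oil in hCAR-TG minus that in WT differed for Cyp2f2 (-1.62) and Cyp2u1 (-0.96). That of Cyp2f2 rests on the same newborn libraries as its genotype difference at day 5. That of Cyp2u1 had an adjusted p of 0.0724 (limma) when only the groups compared were fitted. Of all genes, 23.4% were called for TCPOBOP between ages and 9.99% for CITCO between ages. For CITCO against TCPOBOP 33.7% were called at day 5 and 33.8% at day 60, and 6.94% for age between genotypes.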

How the results depend on the processing

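Of the member results over all alternatives, 1338 kept their side of the threshold, 68 lost and 10 gained a call. Of the 1338, 1312 kept their direction and 26, called neither as reported nor in the alternative, changed sign, and none changed direction while called. Members called for CITCO at day 5 in hCAR-TG were 2 as reported, 1 without a filter, with a filter at 5 FPKM, in the compared libraries only or without the libraries with pancreatic transcripts, 4 with the file number as a factor, and 1 to 3 when 1 library was left out. For CITCO at day 60 they were 1 as reported, 0 at 5 FPKM and with the file number, and 1 whichever library was left out. For the CITCO response between ages they were 1 as reported, 0 at 5 FPKM, 2 with the file number, and 1 to 2 with 1 library left out. For CITCO against TCPOBOP at day 60 they were 7 as reported, 4 with a pseudocount of 0.1 or no filter, and 4 to 6 with 1 library left out. For genotype they were 1 at day 5 (2 with a pseudocount of 0.1, 1 to 2 with 1 library left out) and 1 at day 60 (0 at 5 FPKM, in the compared libraries only or with the file number, 0 to 2 with 1 library left out). For the age effect between genotypes they were 2 as reported and 1 at 5 FPKM or in the compared libraries only. At 5 FPKM Cyp2u1 and Cyp2j9 were not tested, which lowers such counts, and the cause of the other changes was not tested. Genes called over the whole table moved by over 1.5 times for CITCO at day 5 (2099 as reported, 596 in the compared libraries only, 4793 with the file number, 1182 without CITCO replicate 2, 1147 without CITCO replicate 3) and at day 60 (1028, 461 with the file number). They moved likewise for the CITCO response between ages (1227, 3292 with the file number, 814 without day 5 CITCO replicate 3) and for CITCO against TCPOBOP at day 5 (4142, 2532 without the libraries with pancreatic transcripts). For genotype at day 5 they were 1297, 817 at 5 FPKM, 191 in the compared libraries only, 785 without the libraries with pancreatic transcripts and 801 without WT corn oil replicate 1 or 2. For genotype at day 60 they were 602, 230 in the compared libraries only, 109 with the file number, 361 without WT corn oil replicate 2 and 336 without hCAR-TG corn oil replicate 1. At 5 FPKM the age calls were 5568 in WT and 5688 in hCAR-TG, against 8617 and 8788 as reported, and the age effect between genotypes had 288 in the compared libraries only, against 852. Same-numbered replicates deviated together little or not at all (correlations of -0.18 to 0.264), which cannot show whether the numbers pair the libraries. The highest value was that of replicate 2 with TCPOBOP and corn oil in newborn WT livers, which both held pancreatic transcripts. With a replicate block the CITCO against TCPOBOP call of Cyp2j6 at day 60 was lost (0.27, adjusted p = 0.0641), and the other 90 member results kept their side. FPKM without read totals limits what can be said of Cyp2u1 and Cyp2j9, the lowest members.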
